A study of Mus musculus with 20 samples.

Results

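The genes that encode the ionotropic and metabotropic glutamate receptors and the vesicular and plasma membrane glutamate transporters were followed in the cortex of APOE4 mice fed a ketogenic diet (KD) or a control diet (CD). They were chosen by name, as 30 of the 23413 genes counted, and fall into 7 classes: 4 AMPA receptor subunits, 5 kainate receptor subunits, 7 NMDA receptor subunits, 1 delta receptor subunit, 7 metabotropic receptors, 3 vesicular transporters and 3 plasma membrane transporters. Total RNA of frozen cortex came from 20 mice in which human APOE4 replaces the mouse Apoe gene. All were 22 months old and had eaten isocaloric amounts of 1 of the diets for 12 months, starting at 10 months. The groups were 5 female mice on the CD and 4 on the KD, and 5 male mice on the CD and 6 on the KD, with 1 library per mouse and no mice of another Apoe genotype in the comparison. Each mouse carried the knock-in allele, so the diet and the sex were compared within a single genotype.

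Glutamate is the main excitatory transmitter of the cortex. VGLUT proteins load it into synaptic vesicles, AMPA, kainate and NMDA receptors are channels that it opens, and metabotropic receptors pass its signal to G proteins. Transporters of the plasma membrane, most of them in astrocytes, then clear it from the extracellular space, and glutamine made from it returns to neurons. In the adult forebrain, pyramidal neurons of the cortex use VGLUT1, thalamic neurons use VGLUT2, and VGLUT3 is found in smaller groups of interneurons and in cholinergic neurons of the striatum.

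The deposited values were counts of reads per gene, with library totals from 12207161 to 29109990. The library numbers form 2 series of 10, and each group has mice in both. Series 1 had totals of at least 21015275 and series 2 of at most 17697342. Xist was at 319 CPM (reads of the gene scaled to the total of its library) or more in each female and at most 7.59 CPM in the males. CD female E228 had 14.01 CPM of the Y-linked gene Ddx3y, against at most 1.64 CPM in the other females and at least 164 CPM in the males. The summed level of 14 markers of striatal spiny neurons was 2793, 2531 and 3215 CPM in KD females E61, E68 and E207, 3825 CPM in KD male E59 and 1171 CPM in CD female E249. It was between 240 and 644 CPM in the other 15 libraries, among them KD female E227 with 345 CPM. None of the 14 markers was at 0 in all libraries. The summed level of 12 markers of cortical excitatory neurons was lowest in E249, E61, E68 and E207, at 840, 907, 916 and 1031 CPM, and at least 1164 CPM elsewhere. In E68, E61, E207 and E249 the sum of 8 hippocampal neuron markers was 107, 108, 114 and 145 CPM (elsewhere at least 171). A large part of it came from Mpped1, at 55.8 to 185 CPM in KD females and 88.6 to 171 CPM in CD females. The sum of 8 inhibitory neuron markers was 1599 to 1989 CPM in the same libraries, against at most 1280 CPM elsewhere. KD against CD in females, 5 of these 8 were higher and 3 lower. At an unadjusted p under 0.05 in the edgeR fit were 3 and 2 of them, against 11.4% of all genes. Gad1 had the highest level of the 8, at 441 to 983 CPM in KD females. Gad2 averaged 285 CPM in CD females and 613 CPM in KD females. The sum of 9 microglial markers was 371 to 536 CPM in KD females and 287 to 410 CPM in CD females. KD against CD in females, 9 of 9 had a log2 fold change above 0, against 52.7% of all genes. Of them 4 were at an unadjusted p under 0.05 in the edgeR fit, against 11.4% of all genes. Above 0 were also 14 of 14 striatal, 9 of 9 oligodendrocyte and 6 of 6 oligodendrocyte precursor markers. At an unadjusted p under 0.05 in the edgeR fit were 10, 0 and 1 of them (11.4% of all genes). So were above 0 8 of 10 astrocyte, 7 of 8 endothelial and 7 of 8 thalamic markers, with 1, 0 and 2 at that p. Fewer were above 0 among cortical excitatory (2 of 12), hippocampal (2 of 7 tested) and pan-neuronal markers (2 of 8). In males 0 of 9 oligodendrocyte markers were above 0, against 49.1% of all genes. E59 also had 2355 CPM of 8 choroid plexus markers, where no other library was above 55.6 CPM.

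The start regions of 3 members whose levels differed strongly from library to library are shown first. They run from 250 bases before the RefSeq start to 50 bases after it, on the gene's strand, in the build GRCm38.p6. Capitals mark GC boxes (GGGCGG or its reverse complement CCGCCC), and overlapping matches were counted separately. Slc17a7 encodes VGLUT1 (window chr7:45163671-45163970, plus strand), Grm2 an inhibitory presynaptic receptor (window chr9:106656060-106656359, minus strand) and Slc17a8 VGLUT3 (window chr10:89621200-89621499, minus strand).
Slc17a7: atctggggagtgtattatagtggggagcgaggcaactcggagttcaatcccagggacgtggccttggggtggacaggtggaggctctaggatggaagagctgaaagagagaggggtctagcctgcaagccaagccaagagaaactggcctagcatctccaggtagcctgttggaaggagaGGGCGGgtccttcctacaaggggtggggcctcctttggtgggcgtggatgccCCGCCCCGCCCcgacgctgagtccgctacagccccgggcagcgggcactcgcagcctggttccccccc
Grm2: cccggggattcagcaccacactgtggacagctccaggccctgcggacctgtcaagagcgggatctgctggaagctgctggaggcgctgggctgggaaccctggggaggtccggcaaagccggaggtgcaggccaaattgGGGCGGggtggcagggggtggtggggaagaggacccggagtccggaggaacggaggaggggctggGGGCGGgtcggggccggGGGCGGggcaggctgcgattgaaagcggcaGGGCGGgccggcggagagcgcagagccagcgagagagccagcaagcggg
Slc17a8: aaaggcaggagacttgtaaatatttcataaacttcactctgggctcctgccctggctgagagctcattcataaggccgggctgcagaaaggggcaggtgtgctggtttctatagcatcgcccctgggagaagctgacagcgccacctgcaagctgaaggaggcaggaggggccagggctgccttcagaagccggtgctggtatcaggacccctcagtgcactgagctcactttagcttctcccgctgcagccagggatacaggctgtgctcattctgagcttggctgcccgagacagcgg
The Slc17a7 window held 3 GC boxes, the Grm2 window 4 and the Slc17a8 window 0. Of the 30 members, 21 had an entry in the RefSeq table, with 26 promoters in all. A GC box was in 14 of these 26, and in 35.7% of 32851 promoters of the same length. The core of the cAMP response element (TGACG, on either strand) was in 5 of the 26, those of Grik2, Grin1, Grm8, Slc17a6 and Slc1a3, and in 20.8% of all promoters. The presence of these letters is a description of the windows and no evidence of binding.

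Levels were compared between genes as CPM per kilobase of the gene's merged exons, averaged over the 20 libraries. The astrocytic transporter Slc1a2 (GLT-1) had the highest level at 372 CPM per kb, above that of any other member in each of the 20 libraries. It was followed by the AMPA subunit Gria2 at 175, the astrocytic transporter Slc1a3 (GLAST) at 164 and Slc17a7 at 118 CPM per kb. Gria3, Grm5, Gria1 and Grm3 came next, between 68.9 and 82.5 CPM per kb, and their order changed from library to library, since Gria3 was above Grm5 in 11 of 20 libraries and Gria1 above Grm3 in 10. Apart from Slc1a2 and Gria2, no pair of neighbours in this order had ranges over the 20 libraries that did not overlap. The order was the same with the length of the longest transcript in place of the merged exons.

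**Figure D1:**
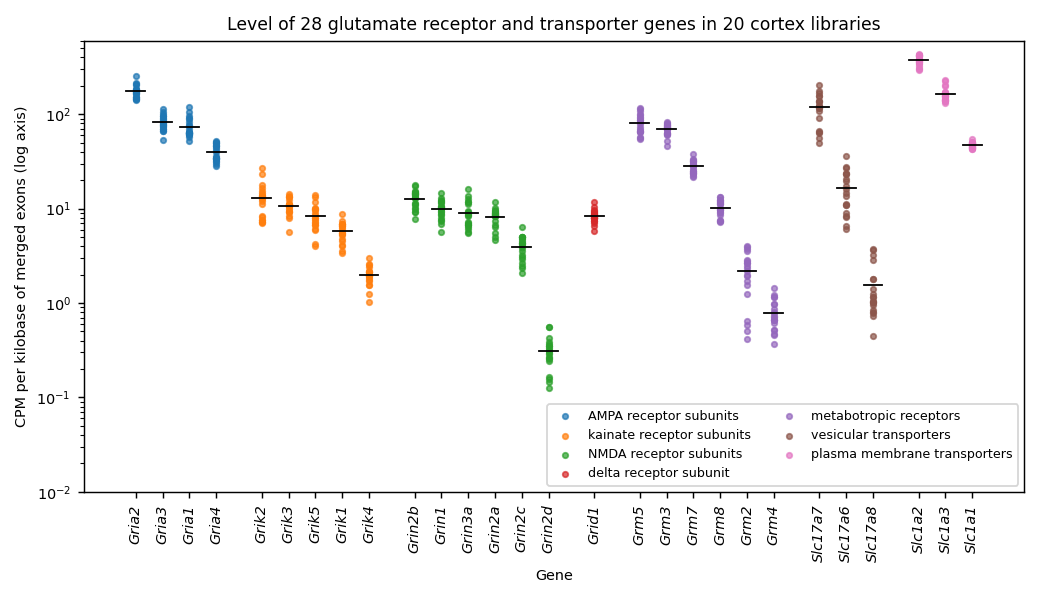
Level of the 28 tested members in CPM per kilobase of merged exons (log axis), with 1 point per library and a bar at the mean of the 20 libraries, coloured by class. Slc1a2 lies above all others at a mean of 372 CPM per kb, and the NMDA and kainate subunits lie below the AMPA subunits.

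By class, the summed AMPA subunits (371 CPM per kb) stood above the summed kainate subunits (39.6) and NMDA subunits (44.1). Within the AMPA receptors Gria2, whose edited form makes the channel impermeable to calcium, contributed 47.1% ± 1.96 of the summed level (SD, n = 20). Among the NMDA subunits Grin2b (12.8 CPM per kb), Grin1 (9.91), Grin3a (8.97) and Grin2a (8.17) had similar levels, and Grin2c and Grin2d were at 3.94 and 0.308 CPM per kb. Grin2a stood to Grin2b as 0.648 ± 0.121 to 1 (SD, n = 20). Slc17a7 made up 84.8% ± 9.47 of the summed vesicular transporters, Slc17a6 (VGLUT2) 13.9% ± 8.79 and Slc17a8 1.37% ± 1.25. Slc1a2 made up 63.7% ± 3.95 of the summed plasma membrane transporters. The glycine-binding NMDA subunit Grin3b, with 71 counts over all libraries, and the receptor of retinal bipolar cells Grm6, with 6 counts and 15 libraries at 0, did not pass the filter on low counts and were not tested.

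The question of the comparison was whether the diet changed these genes in females and in males. None of the 28 tested members passed the study's thresholds (false discovery rate, FDR, of 0.1 and a 1.5-fold change, Benjamini-Hochberg adjusted over 15660 genes after the quasi-likelihood test of edgeR) in females, where 0.0447% of all genes did. The study, whose processing included a correction for unwanted variation (RUVg), reported far more genes past these thresholds. In the present fit 7 genes passed them in females and 0 in males. Whether members were among the study's genes is not reported here. At an unadjusted p under 0.05, 8 of the 28 members differed between KD and CD females, against 11.4% of all genes. Of these, 6 were lower on the KD (Gria3, Grm8, Grin2a, Slc1a1, Grm2 and Gria2) and 2 were higher (Grid1 and Slc17a8). Without the 5 libraries above 1000 CPM of striatal markers, which leaves E227 as the single KD female, this count was 0, and with the striatal markers as a covariate it was 4, all lower. Both alternatives were chosen after the data had been seen, and in the first the lone KD female is assumed to vary like the mice of the other groups. Of all genes, 3.7% and 5.03% were at that level in these 2 fits. The count was 4 without CD female E67 or KD female E61 (8.24% and 6.39% of all genes), and 13 without CD female E249 (18.7%). Leaving out E249 put 6 members past the thresholds (Grin2a, Grm8, Grm2 and Slc17a7 lower, Grin3a and Grik2 higher), beside 1046 of 15710 genes, and leaving out KD female E227 put 4 members past them (the same 4 that were lower without E249), beside 906 of 15949 genes. Over the 28 members the median log2 fold change was 0.078, beside 0.013 over all genes, with 15 members above 0 and 13 below. In bulk tissue, fewer cells of a type and less RNA per cell cannot be told apart.

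**Figure D2:**
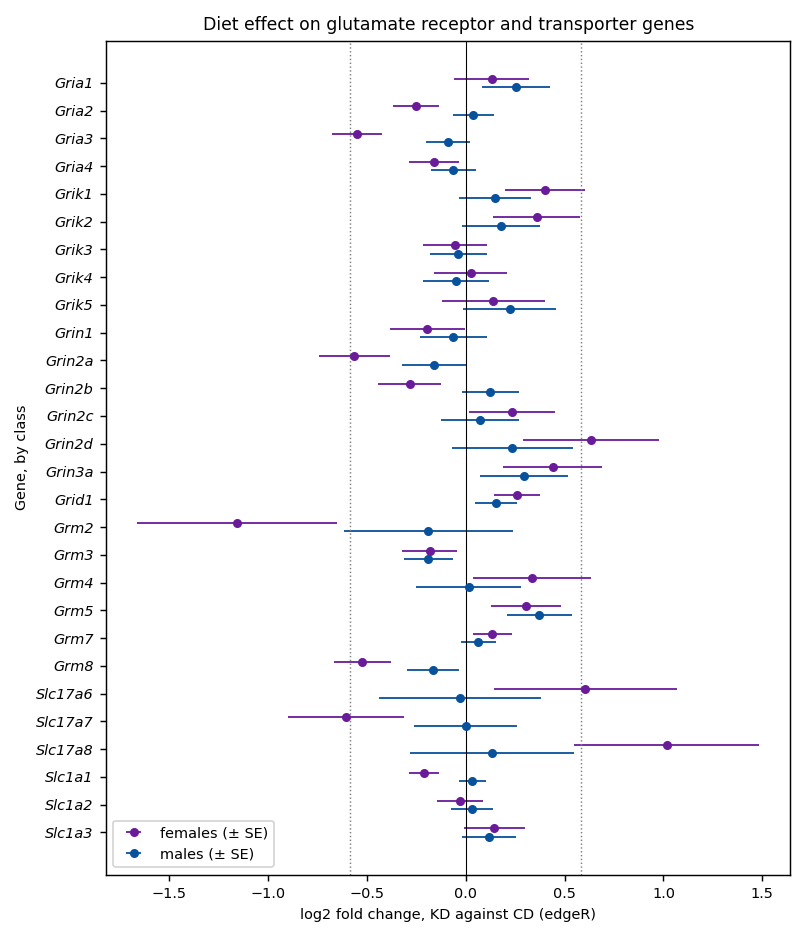
Log2 fold change of KD against CD in females and in males for the 28 tested members by class, with bars of 1 SE from edgeR. Dotted lines mark a 1.5-fold change. The male values lie between -0.19 and 0.37, and those of Grm2 (-1.16) and Slc17a8 (1.02) are farthest from 0 in females.

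In males, 0 of the 28 members and 0% of all genes passed the thresholds. At an unadjusted p under 0.05 the metabotropic receptor Grm5 was the only member that differed, 1 of 28 against 3.56% of all genes, and no member did when any 1 of the males E51, E58, E264, E59, E64 and E254 was left out. Male log2 fold changes ran from -0.19 (Grm3) to 0.37 (Grm5), and female ones from -1.16 ± 0.51 (Grm2) to 1.02 ± 0.47 (Slc17a8). How many of all genes lay beyond a 1.5-fold change by size alone was not counted. A direct comparison of the diet's effect in the 2 sexes, the interaction of diet and sex, gave 0 members past the thresholds and 0% of all genes. At an unadjusted p under 0.05 it gave 2 members, Gria3 and Slc1a1, against 2.14% of all genes, with 7 members without E249 (6.14%), 5 without E227 (6.92%), 4 without E66 or E59 (2.39% and 4.18%) and 1 without E58 (1.59%). Averaged over both sexes, the diet gave 0 members past the thresholds, where 0.268% of all genes were, and 6 at an unadjusted p under 0.05 (13.9% of all genes): Gria3, Grin2a and Grm8 lower and Grin3a, Grid1 and Grm5 higher on the KD. Without E249 or E227 the latter count was 14 or 11 (20.3% and 18.7% of all genes), and Grm2 passed the thresholds. Between females and males 0 members and 0.134% of all genes passed the thresholds. Slc17a7, Grm8 and Grm2 were lower in females at an unadjusted p under 0.05, 3 of 28 members against 13.6% of all genes, a count that was 0 both without the 5 libraries rich in striatal markers and with those markers as a covariate (1.07% and 3.29% of all genes). It was 1 without E61 or E68 (9.65% and 8.3% of all genes), and 7, 6, 5 and 8 without E67, E228, E59 and E227 (13.1%, 17%, 15.2% and 23.9%). Without E227 Grm2 and Slc17a7 passed the thresholds. The diet comparisons within a sex, their interaction and their average share the same mice.

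Among the AMPA receptor subunits, Gria3 (GluA3, chrX:41400854-41678601 of GRCm38) was the member with the smallest p in females. It was at 413, 574, 515, 620.0 and 519 CPM in CD females E62, E67, E228, E249 and E265, the order in which CD females are given throughout. In KD females E61, E68, E207 and E227, also in fixed order, it was at 289, 363, 421 and 410.1 CPM. Of the KD libraries 3 lay below every CD library and E207 lay above CD female E62. The log2 fold change was -0.55 ± 0.12 (SE), with an adjusted p of 0.161 in edgeR's quasi-likelihood test, and the exact permutation test over the 126 splits of the 9 females gave p = 0.0238 (two-sided, smallest possible 0.00794). Within series 1 and series 2 the log2 fold change was -0.64 and -0.48, and it was -0.48 without the 5 libraries rich in striatal markers. By the likelihood ratio test of edgeR and the Wald test of DESeq2 Gria3 passed the FDR but not the 1.5-fold change. CD males E51, E58, E66, E251 and E264 had 399.6, 433, 479.6, 471 and 444 CPM of Gria3, and the KD males 361 to 546 CPM (median 417). The male ranges overlapped, and the log2 fold change was -0.089 ± 0.11. The difference between the sexes was -0.46 ± 0.17 (unadjusted p = 0.0130 in the edgeR fit), with an adjusted p of 0.9999. As a share of the summed AMPA subunits per kilobase, Gria3 was 23.9% ± 1.48 in CD females, 19.0% ± 1.85 in KD females, 23.6% ± 0.614 in CD males and 21.7% ± 2.12 in KD males (SD, n = 5, 4, 5 and 6).
Gria2 had 1606, 1938, 1835, 2658 and 2225 CPM in CD females and 1507, 1741, 1899 and 1848 CPM in KD females. The CD range was set by E249 at its upper end and enclosed all KD females but E61. In females the difference on the log2 scale was -0.25 ± 0.12 (adjusted p = 0.419 by edgeR), and in males it was 0.039 ± 0.10. In CD males Gria2 was at 1496, 1590.1, 1761, 1919 and 1784 CPM and in KD males at 1520.4 to 2188 CPM (median 1774). The share of Gria2 among the AMPA subunits was 47.9% ± 2.64 in CD females and 46.6% ± 1.52 in KD females, less apart than the mice of a group were.
Gria1 (GluA1), a subunit that is inserted at synapses in long-term potentiation, was at 359, 475, 372, 609 and 302 CPM in CD females and 549.9, 516, 533 and 367 CPM in KD females. E61, E68 and E207 lay above all CD females except E249, whereas E227 had a level like that of CD female E228. In CD males it was at 367, 405, 369, 344 and 354 CPM and in KD males at 329 to 688 CPM (median 408), with E64 the highest of all libraries. The log2 fold changes of 0.13 ± 0.19 in females and 0.25 ± 0.17 in males did not pass the test (adjusted p = 0.888 and 0.9998 by edgeR). The female value was 0.035 without E62 and 0.33 without E249, and the male value was 0.11 without E64. Gria4, a subunit prominent in interneurons and in the thalamus, averaged 263 ± 42.3 CPM in CD females and 237 ± 57.5 CPM in KD females (SD), with log2 fold changes of -0.16 ± 0.13 and -0.062 ± 0.11 in females and males.

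**Figure D3:**
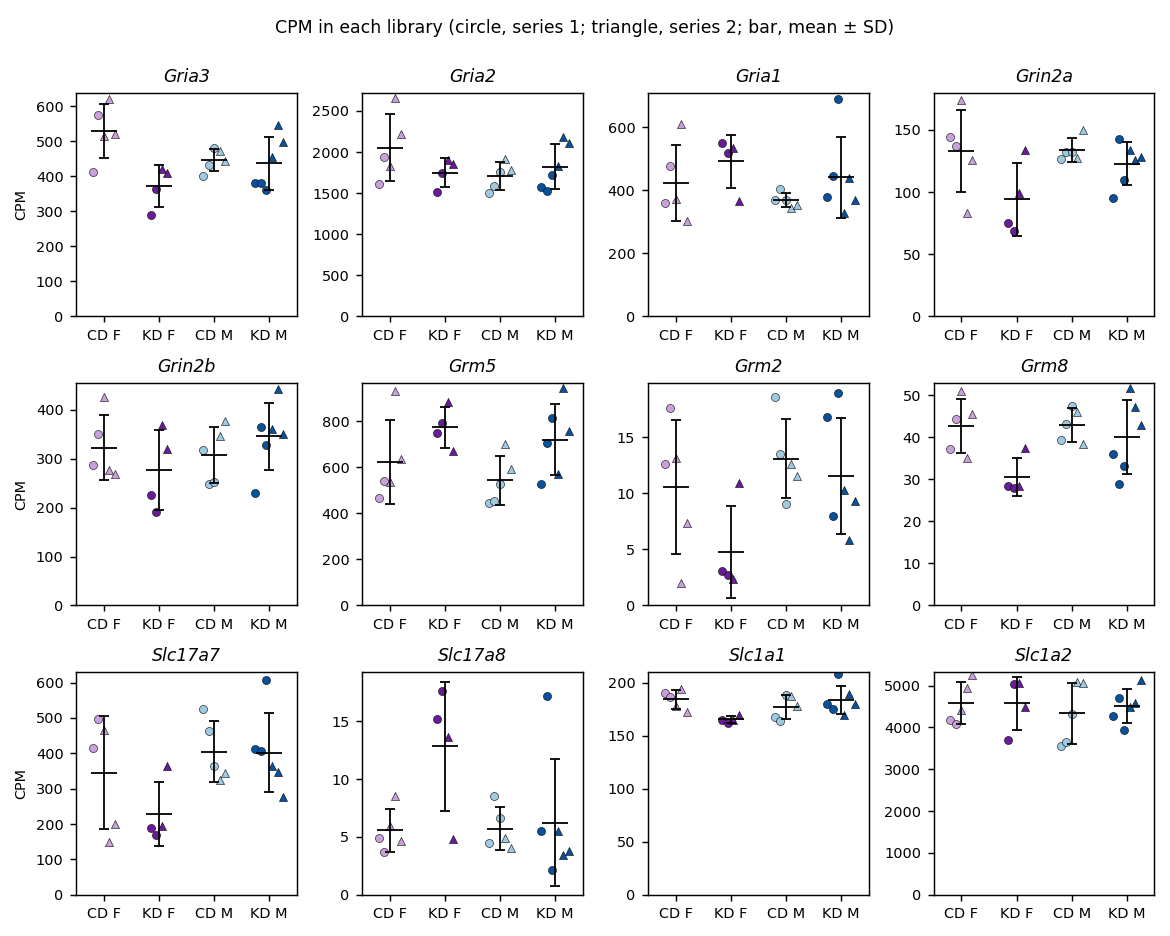
CPM of 12 members in each library by group (circles, series 1; triangles, series 2; bars, mean ± SD), each axis starting at 0. KD and CD females do not overlap for Slc1a1. For Grm2 and Slc17a7 each KD female lies within the range of the CD females, with E227 the highest KD female. For Slc17a8 E227 is the lowest KD female.

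The kainate receptor subunits had no member at an unadjusted p under 0.05 in any of the 5 comparisons. Grik2 (GluK2), the most abundant of them per kilobase, was at 75.3, 78.7, 124, 279 and 152 CPM in CD females and 135, 143, 239.8 and 142 CPM in KD females. E249 and E207 stood above the other females, and the diets overlapped. CD males had 85.6, 74.2, 78.1, 159.8 and 131 CPM and KD males 72.7 to 183 CPM (median 129). KD minus CD, the log2 values differed by 0.36 ± 0.22 (females) and 0.18 ± 0.20 (males, edgeR adjusted p = 0.593 and 0.9998). Of the other kainate subunits, Grik1 had 21.5 ± 4.71 CPM in CD and 28.2 ± 6.02 CPM in KD females, and its log2 fold change was 0.40 ± 0.20. Grik3, Grik4 and Grik5 had female log2 fold changes of -0.055, 0.025 and 0.14, each smaller than its SE.
The delta receptor subunit Grid1 (GluD1), which binds cerebellins at synapses, was at 47.7, 45.0, 46.3, 37.4 and 33.1 CPM in CD females and 54.8, 45.8, 59.4 and 49.6 CPM in KD females. E61, E207 and E227 lay above all CD females, and E68 between them. The log2 fold change was 0.26 ± 0.12, with an adjusted p of 0.400 by edgeR and an exact permutation p of 0.0556 over 9 females. CD males had 52.97, 47.2, 42.2, 45.4 and 42.2 CPM and KD males 40.7 to 67.3 CPM (median 50.6), a log2 fold change of 0.15 ± 0.10. In females the value was 0.077 in series 1 and 0.42 in series 2, and 0.24 with the striatal markers as a covariate.

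Of the 6 tested NMDA receptor subunits, Grin2a (GluN2A), the subunit that gains over Grin2b as the forebrain matures, was lower on the KD in females at an unadjusted p under 0.05. It was at 144, 137, 174, 83.3 and 126 CPM in CD females and 74.8, 68.8, 99.3 and 134 CPM in KD females. CD female E249 lay among the low KD libraries, and KD female E227 lay among the CD libraries. The log2 fold change was -0.56 ± 0.18 (adjusted p = 0.239 by edgeR), and it was -1.01 in series 1 and -0.20 in series 2. It was -0.28 without the 5 libraries rich in striatal markers. Grin2a passed the thresholds without CD female E249 (-0.71, adjusted p = 0.0140 by edgeR) and without KD female E227 (-0.75, adjusted p = 0.0247). CD males had 126, 132, 133, 128 and 150.3 CPM and KD males 95.2 to 143 CPM (median 127), with 3 KD males below every CD male and a log2 fold change of -0.16 ± 0.16.
Grin2b (GluN2B) was at 287, 352, 426, 278 and 269.9 CPM in CD females and 226, 192, 369 and 320.3 CPM in KD females. E61 and E68 were below the CD females and E207 and E227 within their range. CD males had 319, 248, 253, 346 and 377 CPM and KD males 230.3 to 444 CPM (median 355). KD against CD, females had a log2 fold change of -0.28 ± 0.16 and males one of 0.12 ± 0.14, and their difference of -0.41 ± 0.21 had an unadjusted p of 0.0739 in the edgeR fit. The ratio of Grin2a to Grin2b per kilobase was 0.685 ± 0.129 in CD females and 0.570 ± 0.102 in KD females, and 0.736 ± 0.129 in CD males and 0.597 ± 0.0755 in KD males (SD).
The obligatory subunit Grin1 averaged 42.6 ± 13.0, 38.7 ± 6.54, 46.5 ± 10.1 and 44.4 ± 9.71 CPM in the CD and KD females and the CD and KD males. These means lay closer together than the mice within a group. Grin3a, a glycine-binding subunit that lowers calcium entry, was described after its values were seen. It was at 51.4, 50.5, 52.6, 120.0 and 50.3 CPM in CD females and 101, 94.99, 88.2 and 63.5 CPM in KD females, where E249 stood far above the other CD females. For KD against CD females the log2 fold change was 0.44 ± 0.25 (adjusted p = 0.547 by edgeR), but -0.034 in series 2 alone and 0.72 without CD female E249 (adjusted p = 0.0423). Averaged over both sexes it was 0.37 ± 0.17. Grin2c and Grin2d had female log2 fold changes of 0.24 ± 0.22 and 0.63 ± 0.34, with levels of at most 3.42 CPM for Grin2d.

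Among the metabotropic receptors, Grm5 (mGlu5), a group I receptor coupled to Gq, was higher on the KD in males at an unadjusted p under 0.05. CD males had 446, 454, 526, 699.9 and 592 CPM, and KD males 528 to 942 CPM (median 731). Of the 6 KD males, 4 lay above every CD male. The log2 fold change was 0.37 ± 0.16, with an adjusted p of 0.9998 in edgeR's quasi-likelihood test and an exact permutation p of 0.0628 over the 462 splits of the 11 males. In females Grm5 was at 467, 541, 538, 931 and 634 CPM on the CD and 747, 789, 885 and 671 CPM on the KD. Each KD female lay above the 4 CD females other than E249, which was the highest female. The female log2 fold change of 0.31 ± 0.18 differed from the male value by -0.068 ± 0.24. It was 0.027 in females with the striatal markers as a covariate and 0.077 without the 5 libraries rich in them, and 0.30 and 0.34 in males.
Grm2 and Grm3 are the group II receptors, which lower glutamate release. Grm2 (chr9:106643095-106656082) was at 12.6, 17.5, 13.2, 1.97 and 7.39 CPM in CD females and 3.03, 2.76, 2.35 and 10.9 CPM in KD females. The low libraries were KD females E61, E68 and E207 and CD female E249, and E227 lay within the range of the other CD females. CD males had 18.6, 13.5, 9.07, 12.6 and 11.6 CPM and KD males 5.84 to 18.9 CPM (median 9.79). On the log2 scale KD and CD females differed by -1.16 ± 0.51, the largest among the members, with an adjusted p of 0.384 by edgeR. It was -2.42 in series 1, -0.25 in series 2, -0.25 with the striatal markers as a covariate and 0.037 without the 5 libraries rich in them. Grm2 passed the thresholds without CD female E249 (-1.44, adjusted p = 0.0636 by edgeR) and without KD female E227 (-2.13, adjusted p = 0.0117). Females minus males, Grm2 was at -0.75 ± 0.33 on the log2 scale, and at 0.053 without those 5 libraries. Grm3, found in astrocytes and neurons, was at 189, 239.6, 254.05, 190.5 and 222 CPM in CD females and 157, 189, 235 and 216 CPM in KD females. It was at 194, 219, 245, 235 and 214 CPM in CD males and 140.1 to 227.54 CPM (median 212) in KD males. The diets overlapped in both sexes, with log2 fold changes of -0.18 ± 0.14 in females and -0.19 ± 0.12 in males.
Of the group III receptors, which also act on presynaptic release, Grm8 was lower on the KD in females at an unadjusted p under 0.05. It was at 37.2, 44.3, 50.9, 35.1 and 45.6 CPM in CD females and 28.3, 27.9, 28.4 and 37.4 CPM in KD females. E61, E68 and E207 were below every CD female, and E227 was between E62 and E67. KD against CD it was -0.52 ± 0.14 on the log2 scale (adjusted p = 0.202 by edgeR, exact permutation p = 0.0397 over 9 females). It was -0.58 in series 1 and -0.49 in series 2, -0.28 with the striatal markers as a covariate and -0.43 without the 5 libraries. Grm8 passed the thresholds without CD female E249 (-0.60, adjusted p = 0.0223 by edgeR) and without KD female E227 (-0.60, adjusted p = 0.0467). In CD males Grm8 was at 39.3, 43.0, 47.5, 45.9 and 38.3 CPM and in KD males at 29.0 to 51.7 CPM (median 39.4), with a log2 fold change of -0.17 ± 0.13. The difference between females and males was -0.23 ± 0.10. Grm7 and Grm4 had female log2 fold changes of 0.13 ± 0.10 and 0.34 ± 0.30, neither past an unadjusted p of 0.05.

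The vesicular transporters varied more between libraries than the other transporters. Slc17a7 (VGLUT1, chr7:45163949-45176142) was at 415, 497, 466, 149.7 and 201 CPM in CD females and 189, 168, 195 and 364 CPM in KD females. CD females E249 and E265 had levels like those of KD females E61, E68 and E207, and E227 lay between these and the other CD females. CD males had 526, 464, 364, 324 and 346 CPM and KD males 276 to 607 CPM (median 385), and no male was below 276 CPM. In females the log2 fold change was -0.61 ± 0.29, with an adjusted p of 0.445 by edgeR. It was -1.39 in series 1, -0.027 in series 2, -0.19 with the striatal markers as a covariate and 0.084 without the 5 libraries rich in them. Slc17a7 passed the thresholds without CD female E249 (-0.79, adjusted p = 0.0877 by edgeR) and without KD female E227 (-1.02, adjusted p = 0.0399). In males it was -0.00033 ± 0.26. The comparison of females with males gave -0.48 ± 0.20 (unadjusted p = 0.0256 in the edgeR fit), and 0.032 without the same libraries.
Slc17a8 (VGLUT3, chr10:89574020-89621253) and Slc17a6 (VGLUT2) were described after their values were seen. Slc17a8 was at 4.95, 3.73, 5.93, 8.52 and 4.69 CPM in CD females and 15.2, 17.6, 13.6 and 4.84 CPM in KD females. E61, E68 and E207 lay above all CD females, and E227 did not. Among the males E59 was at 17.2 CPM, and the other 10 were at most at 8.55 CPM. In females the log2 values differed by 1.02 ± 0.47 (adjusted p = 0.419 by edgeR) and in males by 0.13 ± 0.42. In females it was -0.047 with the striatal markers as a covariate and -0.039 without the 5 libraries rich in them. Slc17a6 ranged from 25.3 CPM in CD male E58 to 150.1 CPM in KD female E61, and no group's range lay apart from that of another. Log2 fold changes were 0.60 ± 0.46 (females) and -0.029 ± 0.41 (males). The sum of 8 thalamic neuron markers was 124 CPM in E61 and 66.3 CPM in E58. It was highest in KD male E254 (136 CPM), and no KD male was above 99.3 CPM of Slc17a6. The sum of 8 hypothalamic neuron markers was 25.8 CPM in E61 and at most 6.55 CPM elsewhere. The part of these markers in Slc17a6 was not tested.

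Slc1a1 (EAAC1, chr19:28835049-28913960), the neuronal glutamate and cysteine transporter, was the only member whose KD and CD females did not overlap, where 2.01% of all genes had female groups without overlap. CD females had 191, 187, 178, 194 and 173 CPM and KD females 165, 162, 165 and 170.0 CPM. All 4 KD females, E227 included, were below the lowest CD female, by a small margin. The log2 fold change was -0.21 ± 0.076, with an adjusted p of 0.281 by edgeR and an exact permutation p of 0.0159. It was -0.25 and -0.18 within the series, -0.20 with the striatal markers as a covariate and -0.16 without the 5 libraries rich in them. No member had male groups without overlap, where 0.249% of all genes had. CD males were at 168, 164, 189, 188 and 178 CPM and KD males at 169.9 to 208 CPM (median 180.1), a log2 fold change of 0.034 ± 0.068. The female effect minus the male effect was -0.25 ± 0.10 (unadjusted p = 0.0261 and adjusted p = 0.9999 in the edgeR fit). Slc1a1 also varied least among the members, with a highest library 1.28 times its lowest. An exon of the gene 4430402I18Rik overlaps it in the annotation, and how reads at the shared positions were counted was not checked. Of the 30 members 14 share an exon position with another annotated gene, Gria2, Gria3, Grin2b, Grm2 and Slc1a2 among them, and their counts are uncertain to that extent.
Slc1a2, the main glutamate transporter of astrocytes, was at 4189.8, 4072, 4422, 4955 and 5245 CPM in CD females and 3708, 5047, 5063 and 4479.8 CPM in KD females. In CD males it was at 3560.2, 3659, 4319, 5086 and 5057 CPM and in KD males at 3932 to 5122 CPM (median 4539.7). The groups overlapped, with log2 fold changes of -0.029 ± 0.12 in females and 0.031 ± 0.11 in males. Slc1a3 averaged 709.9 ± 165 CPM in CD females, 822 ± 142 in KD females, 660.0 ± 39.5 in CD males and 723 ± 108 in KD males (SD). Its log2 fold changes of 0.15 ± 0.15 and 0.12 ± 0.14 did not pass the test.

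Several members were high or low in the same libraries. E61, E68 and E207, the KD females with high striatal markers, shared low Grm2, Slc17a7 and Grm8 and high Slc17a8 and Grin3a, and CD female E249 shared the low Grm2 and Slc17a7 and the high Grin3a. KD male E59, with the highest striatal marker level, shared the high Slc17a8 (17.2 CPM) and a low Grm8 (29.0 CPM). Its Slc17a7 of 406 CPM and Grin3a of 42.1 CPM were unlike theirs, and its cortical excitatory markers summed to 1302 CPM. CD female E265 had a low Slc17a7 as well, with the lowest striatal marker sum of all libraries (240 CPM). The part of the striatal markers in the diet differences was not tested beyond the covariate and the left-out libraries. These are given for some of the genes only, and not for Grin3a. The part of the cortical, hippocampal, thalamic, hypothalamic, inhibitory, pan-neuronal, choroid plexus, glial and endothelial markers was not tested.

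**Figure D4:**
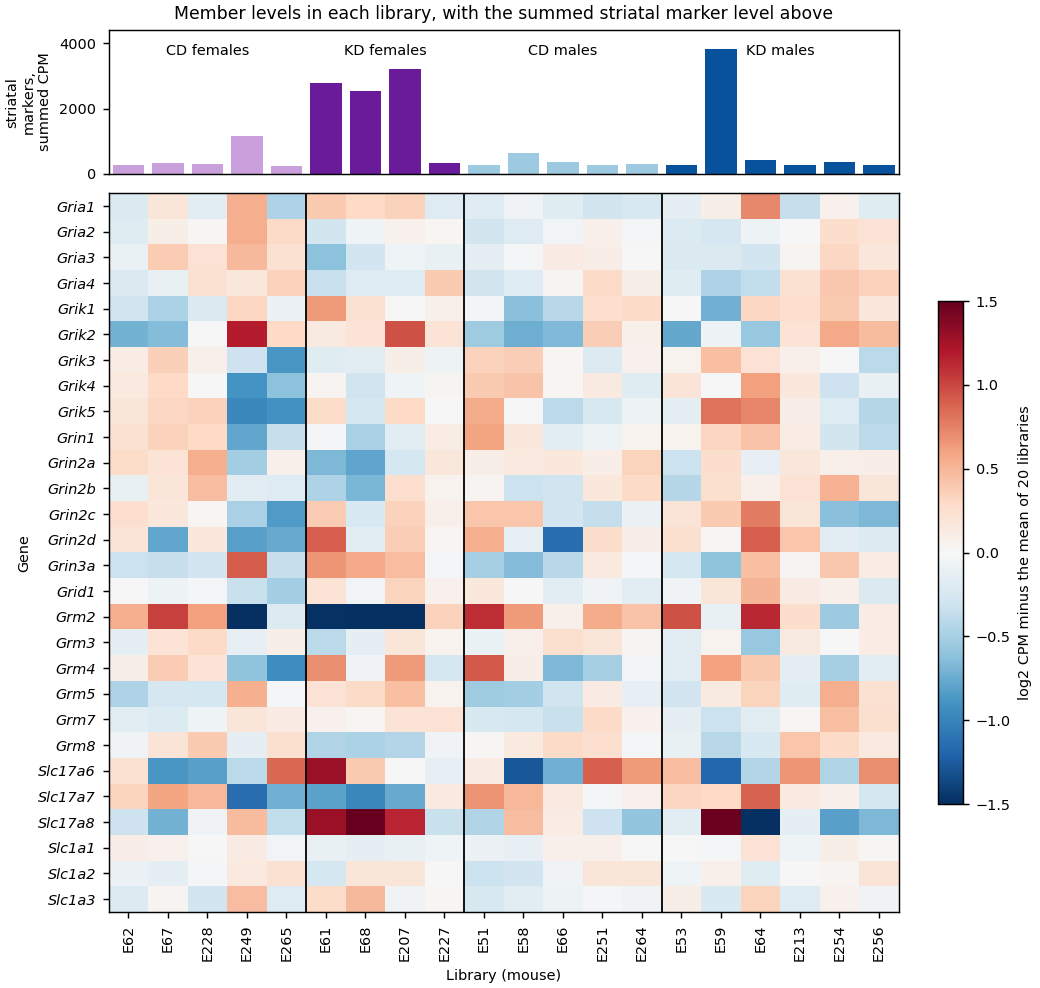
Level of 28 members in each library, as log2 CPM minus the mean of the 20 libraries (colour), with the summed CPM of 14 striatal markers above. E61, E68, E207 and E249 share low Grm2 and Slc17a7, and these 4 libraries and E59 have over 1000 CPM of the striatal markers. Slc17a7 is also low in E265, which has 240 CPM of the markers.

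**Figure D5:**
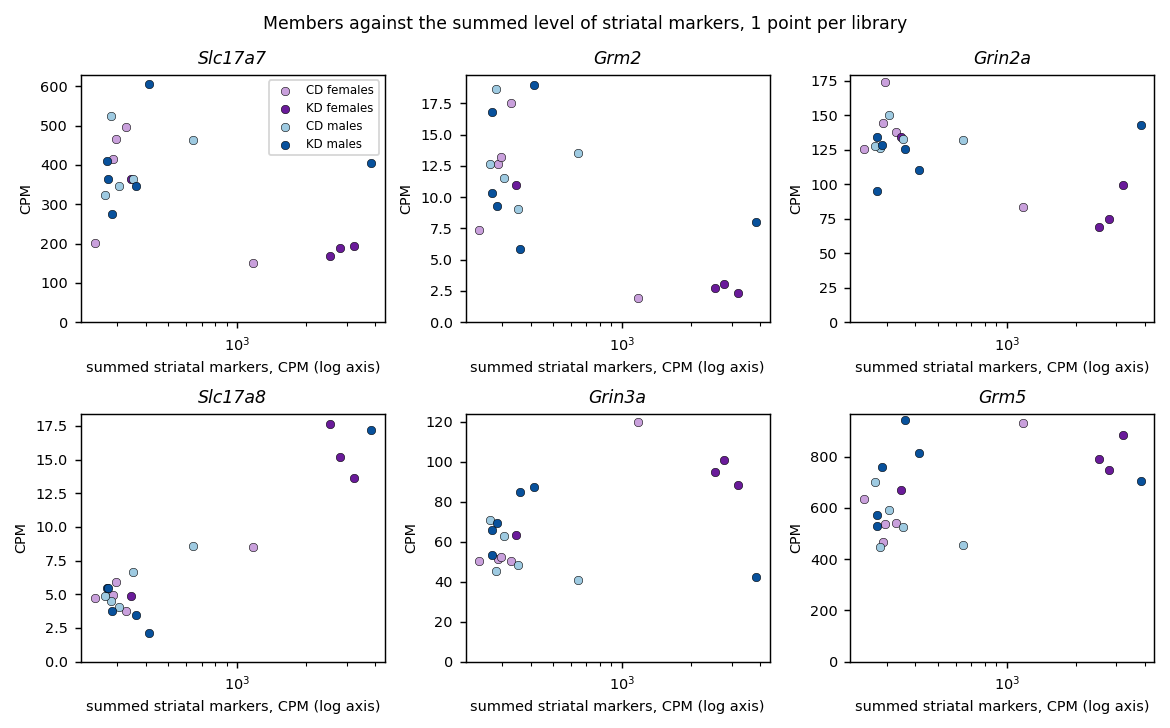
CPM of 6 members against the summed CPM of 14 striatal markers (log axis), with 1 point per library coloured by group. KD females E61, E68 and E207 lie at 2531 to 3215 CPM of the markers with Slc17a7 at or below 195 CPM, and KD male E59 at 3825 CPM has 406 CPM of Slc17a7. CD female E265 has a low Slc17a7 at 240 CPM of the markers.

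A second pattern followed the base composition of the transcripts. The GC content of each member's longest transcript ran from 36.8% (Gria2) to 65.0% (Grin2d), with a median of 47.7%. The mean centred log2 CPM of the 14 members above that median minus that of the other 14 was -0.69 in CD female E265 and -0.67 in CD female E249, and 0.55 and 0.86 in CD male E51 and KD male E64. The same difference over all tested genes split at that GC content was -0.50 and -0.60 in E265 and E249 and 0.43 and 0.52 in E51 and E64. Among the members, Grin1, Grik4, Grik5, Grm2 and Slc17a7 had their lowest level of all libraries in E249, and Grik3, Grin2c, Grid1, Grm4 and Gria1 had theirs in E265. Gria1, Grik4, Grin2c, Grin2d, Grid1, Grm2, Slc17a7 and Slc1a1 were highest in E64. E64 also had the highest summed hippocampal markers (388 CPM, next 260 CPM in E227) and the lowest sum of 9 oligodendrocyte markers (1399 CPM, next 1562 CPM in E254). All 12 genes named here as lowest or highest had a GC content above the median, but they were read from 1 end per library. The libraries themselves were chosen for an extreme value of that difference. At the other end, Grin3a, above the median, and Gria2, Gria3 and Grik2, below it, were highest in E249. Slc1a2 was highest in E265 and Grm3 and Slc17a8 were lowest in E64, each with a GC content below the median. The part of base composition and of these markers in the diet differences was not tested.

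Genes that act with these receptors were taken from 3 lists. Of 22 tested receptor auxiliary subunits, 0 passed the thresholds, and at an unadjusted p under 0.05 in the edgeR fit 2 were higher and 4 lower on the KD in females and 2 higher and 1 lower in males, where 11.4% and 3.56% of all genes were at that level. In females the smallest p values were those of Frrs1l, needed for AMPA receptor assembly (log2 fold change -0.51 ± 0.13, adjusted p = 0.194 by edgeR), and of the AMPA receptor auxiliary subunit Cacng4 (1.38 ± 0.42, adjusted p = 0.230). In males they were those of Cbln2, a partner of delta receptors (-0.68 ± 0.27), and the AMPA receptor auxiliary subunit Shisa6 (0.78 ± 0.32). Both had an adjusted p of 0.9998 by edgeR. Cbln2 averaged 85.8 ± 30.7 CPM in CD females and 48.6 ± 6.62 CPM in KD females, and 80.4 ± 16.9 CPM in CD males and 49.4 ± 18.9 CPM in KD males (SD). Of 19 tested scaffolds and postsynaptic kinases 0 passed the thresholds, and 0 were higher and 3 lower in females at an unadjusted p under 0.05, with 0 in males. The postsynaptic density protein Dlgap1 was at 584 ± 116 CPM in CD females and 385 ± 86.9 CPM in KD females, a log2 fold change of -0.66 ± 0.15 (adjusted p = 0.161 by edgeR). Camk2a, the kinase subunit that acts in synaptic potentiation, had -0.39 ± 0.17. Of 14 tested genes of glutamate metabolism and cycling, 0 passed the thresholds. In females Gad2, a GABA-synthesizing enzyme, was higher on the KD at an unadjusted p under 0.05 (1.09 ± 0.47 on the log2 scale, edgeR fit). In males 0 of the 14 were at an unadjusted p under 0.05. Gad2 is abundant in striatal spiny neurons, and its level in CD females was 285 ± 244 CPM.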

How the data were processed

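Cortex RNA of 20 APOE4 mice was measured by RNA-seq (stranded total RNA libraries, 50-base read pairs). Reads had been mapped by the authors to mm10 (STAR), and the deposited values are raw counts per gene, not normalized. Aligner version, annotation and counted strand are not given in the sources used here. Groups came from the sample labels, where SD is the control diet, and library series were read from the library numbers. No animal number is shared between groups.

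The members and lists were chosen with earlier results of these data known. CPM were counts scaled to each library's total, and log2 CPM used a prior count of 2. Positions and exon lengths came from GENCODE M21 (GRCm38), which held 21777 of the 23413 gene names, and promoters from RefSeq (GRCm38.p6). The GC content was that of the longest GENCODE transcript, found for 14678 of the 15660 tested genes. edgeR 4.0.16 (R 4.3.3) was fitted to the 15660 genes kept by filterByExpr, with upper-quartile normalization, the 4 groups and the library series in 1 fit, quasi-likelihood F tests with robust dispersions, Benjamini-Hochberg adjustment over all tested genes, and thresholds of FDR 0.1 and 1.5-fold. A single member's diet difference was also tested by exact permutation (two-sided) of log2 CPM. The fit was tested on simulated data. The study's RUVg step, whose settings are not given in the sources used here, was run only as an alternative, with all but the 5000 genes of smallest p as controls. Other alternatives were TMM or DESeq2 size factors, a fit without the series term or within each series, no filter or a minimum of 10 counts per library, edgeR's likelihood ratio test, DESeq2 1.42.0 with its Wald test, leaving out each mouse, and 2 that use the striatal markers, added after the data had been seen.

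Values of every library are given for the 3 members of smallest p in each of 4 comparisons (diet in females, diet in males, their interaction, sex), and for the most abundant member per kilobase of each class. Of the lists, the 2 genes of smallest p under 0.05 are named for each sex. Slc17a8, Slc17a6, Grin3a and other members named with group means lie outside this rule. Western blots, recordings, behaviour and other measurements of the study were not analysed here.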

Additional observations from a re-analysis of the deposited data

Results flagged for a closer look

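In 7 of 112 combinations of member and group, 1 mouse lay apart from the rest of its group by Dixon's gap to range ratio, where chance gives about 1 in 20, or 5.6. In KD females, E227 had the lowest Gria1 (367 CPM against 516 to 550 CPM, ratio 0.845), the highest Grm2 (10.9 against 2.35 to 3.03 CPM, ratio 0.855) and the highest Grm8 (37.4 against 27.9 to 28.4 CPM, ratio 0.933). E207 had the highest Grik2 of that group (239.8 against 135 to 143 CPM, ratio 0.905). CD female E249 had the highest Grin3a (120.0 against 50.3 to 52.6 CPM, ratio 0.950). In males, E59 had the lowest Grik1 on the KD (14.4 against 23.5 to 31.0 CPM, ratio 0.638) and E264 the highest Grin2a on the CD (150.3 against 126 to 133 CPM, ratio 0.722). E227 was also the KD female with the lowest summed striatal markers, and the part of those markers in its values was not tested. No member passed the FDR for the interaction of diet and sex.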

How the results depend on the processing

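With 24 fold changes and 33 alternatives each, 764 of 792 values kept their direction and their side of the thresholds, 17 were past the thresholds under an alternative only, and 11 changed sign. In series 1 alone 4 members passed the thresholds in females (Slc17a7, Grm2, Grin2a and Grik2), 4 with the sexes averaged and 1 between the sexes, and 13, 2, 5, 12 and 5 members were at an unadjusted p under 0.05 for females, males, interaction, averaged diet and sex, where 17.4%, 6.08%, 7.92%, 18.2% and 11.5% of all genes were. In series 2 alone these were 3, 0 and 1 for females, males and sex and 0 for the averaged diet (2.7%, 0.311%, 3.52% and 1.29% of all genes), and the log2 fold change changed sign for Grin2b (0.021) and Grin3a (-0.034) in females and Gria3 (0.13) and Slc1a1 (-0.016) in males. RUVg with 1 factor gave 15, 4 and 12 members at an unadjusted p under 0.05 for females, interaction and averaged diet (14.9%, 3.37% and 18% of all genes), and with 2 factors 14, 5 and 14 (17.5%, 4.86% and 21.2%), with 2 past the thresholds in females (Slc17a7 and Grm2) and 1 for the averaged diet. No filter gave 2 in males (3.37% of all genes). With the striatal markers as a covariate 4, 1 and 0 were left for females, averaged diet and sex (5.03%, 7.74% and 3.29% of all genes), and the female values of Gria1 (-0.15) and Slc17a8 (-0.047) changed sign. Without the 5 libraries above 1000 CPM of striatal markers 0, 3, 0, 1 and 0 members were left (3.7%, 7.39%, 1.39%, 7.88% and 1.07% of all genes), and Grm2 (0.037), Slc17a7 (0.084) and Slc17a8 (-0.039) in females and Grm2 (0.053) and Slc17a7 (0.032) between the sexes changed sign. The cause was not tested. The fits differ in the mice, the model terms or, with no filter, the genes tested (21180 in place of 15660).

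Leaving out 1 mouse at a time, members past the thresholds numbered 0 to 6 in females, 0 to 1 for the averaged diet and 0 to 2 for sex, and those at an unadjusted p under 0.05 numbered 4 to 13 in females, 0 to 1 in males, 1 to 7 for the interaction, 5 to 14 for the averaged diet and 1 to 8 for sex. The mice concerned past the thresholds were E249 and E227 alone. TMM, DESeq2 size factors, the stricter filter, no series term, the likelihood ratio test and the Wald test moved no count of members by over 1.5 times. Counts over all genes did move: past the thresholds in females, for the averaged diet and for sex there were 7, 42 and 21 genes by the quasi-likelihood test, 220, 370 and 286 by the likelihood ratio test and 253, 351 and 212 by the Wald test, and with the stricter filter 4 genes for sex and with no series term 4 in females. Series 2 libraries hold fewer counts, and low members such as Grin2d, Grm2 and Grm4 are the least precise. No paired analysis was possible because no replicate number is shared between groups.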
